A study of Mus musculus with 9 samples.

Results

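Genes that mark excitatory neurons of the forebrain were followed across 9 libraries from mouse brain. The set holds 9 genes of the 23798 in the deposited table (Slc17a7, Slc17a6, Camk2a, Nrgn, Tbr1, Neurod6, Neurod2, Prox1 and Cux2), chosen by symbol and represented by 11 of its 33299 RefSeq transcripts. Camk2a has 3 transcripts there and each of the other genes has 1. The groups were TG mice given NM-101, TG mice given placebo and WT mice given placebo, with 3 libraries in each. The transgene behind the TG label, its promoter, the nature of NM-101 and the animals' ages are not given in the labels, and the labels do not say whether each library is a separate animal. All libraries are labelled as oligodendrocytes from brain, from RNA taken with a kit for fixed, embedded tissue and sequenced from transcript 3' ends. The title of the series names effects of alpha-synuclein from neurons in oligodendrocytes.

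Excitatory neurons release glutamate. The protein of Slc17a7 (VGLUT1) loads it into synaptic vesicles in most cortical and hippocampal neurons, and that of Slc17a6 (VGLUT2) does so mainly in thalamus, midbrain and brainstem. Camk2a encodes the alpha subunit of CaM kinase II, an abundant enzyme of the postsynaptic side, and Nrgn encodes neurogranin, which binds calmodulin in dendrites. The remaining members are transcription factors. Tbr1 marks deep cortical layers, Cux2 upper layers, Prox1 granule neurons of the dentate gyrus, and Neurod2 and Neurod6 are basic helix-loop-helix factors of glutamate neurons.

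On GRCm38.p6, Slc17a7 lies at chr7:45163921-45176139, Slc17a6 at chr7:51621830-51671126, Nrgn at chr9:37544493-37552745 and Tbr1 at chr2:61802863-61814114. Neurod6 lies at chr6:55677818-55681263, Neurod2 at chr11:98325415-98329645, Prox1 at chr1:190118035-190170827 and Cux2 at chr5:121857962-122050415. Each value is of a whole transcript, with no division into exons or UTRs.

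The promoters of the transporter pair and of the NeuroD pair are shown because both pairs are compared within libraries further on. RefSeq gives windows on GRCm38.p6 from 250 bases before an annotated start to 50 after it. Such windows were found for 8 of the 9 members, 11 windows in all. Capitals mark CANNTG, the E-box recognised by basic helix-loop-helix factors, which reads alike on both strands. The windows lie at chr7:45163671-45163970 on the + strand for Slc17a7, chr7:51621580-51621879 on the + strand for Slc17a6, chr6:55681214-55681513 on the - strand for Neurod6 and chr11:98329596-98329895 on the - strand for Neurod2.
Slc17a7: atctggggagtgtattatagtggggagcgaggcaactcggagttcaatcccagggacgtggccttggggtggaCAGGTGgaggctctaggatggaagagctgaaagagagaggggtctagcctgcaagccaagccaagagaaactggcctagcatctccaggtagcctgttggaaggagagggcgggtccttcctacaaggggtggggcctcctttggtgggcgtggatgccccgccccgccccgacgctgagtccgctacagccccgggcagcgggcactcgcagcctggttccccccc
Slc17a6: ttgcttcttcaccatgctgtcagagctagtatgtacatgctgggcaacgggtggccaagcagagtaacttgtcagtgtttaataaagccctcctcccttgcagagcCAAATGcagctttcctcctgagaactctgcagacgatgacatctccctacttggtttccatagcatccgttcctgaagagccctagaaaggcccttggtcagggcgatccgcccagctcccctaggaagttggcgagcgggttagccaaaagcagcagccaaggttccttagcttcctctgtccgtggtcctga
Neurod6: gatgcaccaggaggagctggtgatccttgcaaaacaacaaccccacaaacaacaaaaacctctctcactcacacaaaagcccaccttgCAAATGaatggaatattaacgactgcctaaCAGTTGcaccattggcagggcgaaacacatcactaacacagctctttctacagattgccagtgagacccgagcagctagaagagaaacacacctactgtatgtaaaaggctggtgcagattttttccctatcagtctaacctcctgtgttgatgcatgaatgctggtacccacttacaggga
Neurod2: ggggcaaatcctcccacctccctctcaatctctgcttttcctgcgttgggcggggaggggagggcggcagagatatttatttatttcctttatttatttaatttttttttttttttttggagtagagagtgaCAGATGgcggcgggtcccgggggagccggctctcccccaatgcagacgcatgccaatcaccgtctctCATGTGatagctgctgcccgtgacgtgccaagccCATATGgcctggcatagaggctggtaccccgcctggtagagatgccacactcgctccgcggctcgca
Each transporter window shown held 1 E-box, the Neurod6 window 2 and the Neurod2 window 3. Slc17a6 has a second annotated start, whose window held 2. Of all 32851 promoter windows, 72.3% held at least 1. The form CAGATG, searched on both strands and contained in CANNTG, was in 5 of the members' 11 windows (Neurod2, Nrgn, 1 of Prox1, 1 of Cux2 and the Slc17a6 window not printed), against 17.2% of all windows. AGGTGTGA, the T-box sequence bound by factors such as Tbr1, was searched on both strands too. It was in none of the members' 11 windows and in 1.28% of all windows. The libraries read 3' ends, so they carry no measurement of these promoters.

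The files hold different units in different groups. WT libraries are whole-number counts with totals from 10612290 to 14041951. TG libraries hold log2 values, read from their pattern as log2(FPKM + 1), where FPKM is fragments per kilobase of transcript, scaled to library size. Steps in the low TG values imply 9130000 to 12880000 reads. WT counts were rebuilt on the same scale only for description, because the groups were normalized separately. Choroid plexus RNA stood out in 3 libraries: its 8 genes summed to 1044 FPKM in NM-101 replicate 2, 4596 in TG placebo replicate 1 and 3065 in WT replicate 1, against 4.58 to 68.8 in the other 6. TG placebo replicates 2 and 3 had the highest sums of 7 nuclear-retained RNAs (1139 and 1380 FPKM), against 197 in TG placebo replicate 1 and 307 to 398 under NM-101.

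The labels name oligodendrocytes, yet 3 of the 9 excitatory neuron genes were among the most abundant genes by FPKM in the TG libraries. Nrgn ranked between 32 and 48 among all genes in the TG NM-101 libraries and between 20 and 26 in the TG placebo libraries. Camk2a ranked between 40 and 51 under NM-101 and between 41 and 62 under placebo, and Slc17a7 between 173 and 177 under NM-101 and between 125 and 145 under placebo. The lowest of these ranks, that of Slc17a7 in NM-101 replicate 3, is at 1.07% of the genes above 0. Neurod6 and Neurod2 ranked between 797 and 2203 over the 6 TG libraries. The other 4 members, Tbr1, Prox1, Slc17a6 and Cux2, ranked between 5606 and 10714, which is 33.8% to 63.2% of the way down the genes above 0. Myelin markers were present as well: 10 of 10 were above 0 in every library, and their sum was 2056 to 3744 FPKM under NM-101, 1564 to 4915 under TG placebo and 2668 to 4470 in WT. Fewer cells of a type and less RNA per cell cannot be told apart in bulk samples.

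The members spanned about 8 units on the log2(FPKM + 1) scale, and their order was similar in the groups. In the TG NM-101 libraries Nrgn stood highest at a mean of 10.38 ± 0.13, then Camk2a at 10.24 ± 0.03 and Slc17a7 at 8.84 ± 0.12 (SD, n = 3). Neurod6 followed at 6.39 ± 0.23 and Neurod2 at 5.98 ± 0.10, then Tbr1 at 3.45 ± 0.29, Prox1 at 3.45 ± 0.36, Slc17a6 at 2.44 ± 0.43 and Cux2 at 2.22 ± 0.39 (SD, n = 3). The ranges of Nrgn and Camk2a overlapped there, as did those of Tbr1 and Prox1 and of Slc17a6 and Cux2, so the order within these pairs is not set. The other neighbours were apart in every NM-101 library. In TG placebo the same genes led, but Nrgn was above Camk2a in every library and the ranges of Neurod2 and Neurod6 overlapped. The 4 lowest members in TG placebo formed a chain of overlapping neighbours from Prox1 through Tbr1 and Slc17a6 to Cux2. In the rebuilt WT levels the leading 3 genes were in the same order, with Nrgn and Camk2a overlapping. Tbr1, Slc17a6, Cux2 and Prox1 formed the overlapping low end. These orders, like the ranks by FPKM, depend on division by transcript length. GENCODE gives 1453 bases for Nrgn and 4970 for the Camk2a transcript NM_177407. In WT counts, not divided by length, Camk2a (43378, 53576 and 47246) was above Nrgn (13069, 18623 and 21594) in every library.

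**Figure D1:**
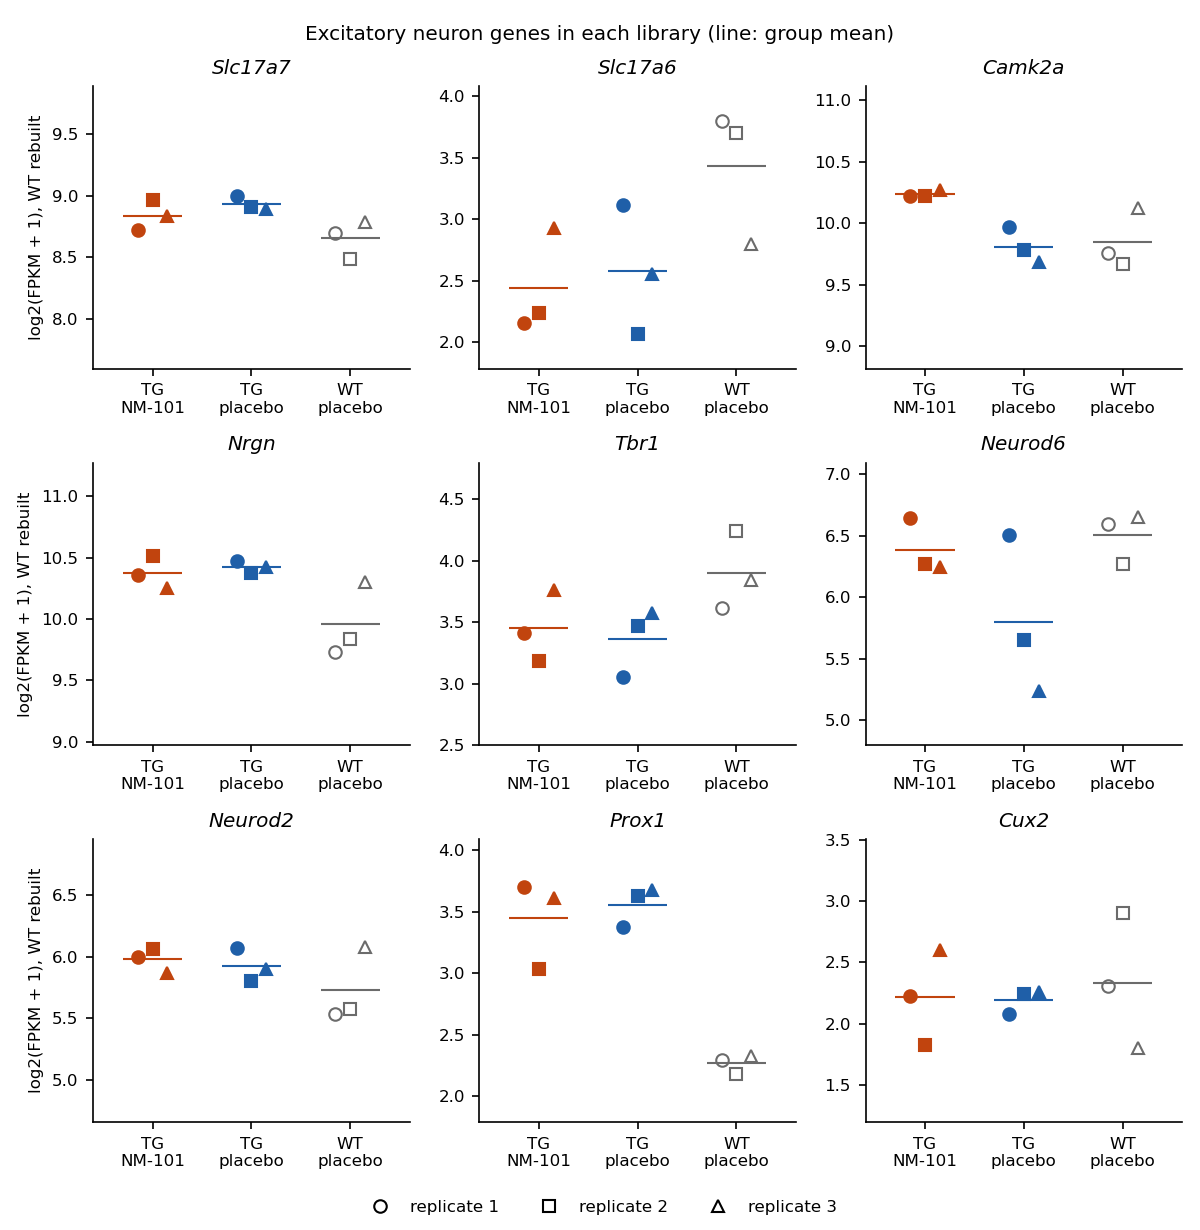
Level of each excitatory neuron gene by library on the log2(FPKM + 1) scale, with WT values rebuilt from counts (open symbols) and lines at group means. Camk2a is higher in all 3 TG NM-101 libraries (10.22 to 10.27) than in any TG placebo library (9.68 to 9.97), while Neurod6 varies most among TG placebo libraries (5.24 to 6.51).

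Within the TG genotype, NM-101 libraries were set against placebo libraries to ask what NM-101 changes. None of the 9 members passed limma at an adjusted p of 0.05 over the 12699 genes tested, where 0.134% passed (0.102% higher and 0.0315% lower). Without adjustment 1 member, Camk2a, had a limma p under 0.05, against 14.8% of all genes. The members' median difference was 0.02 on the log2(FPKM + 1) scale, with 5 higher and 4 lower under NM-101, and the median of all genes was 0.03. Groups did not overlap for 1 member, Camk2a, which was higher, against 19.6% of all genes tested (13.6% higher and 5.98% lower).

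**Figure D2:**
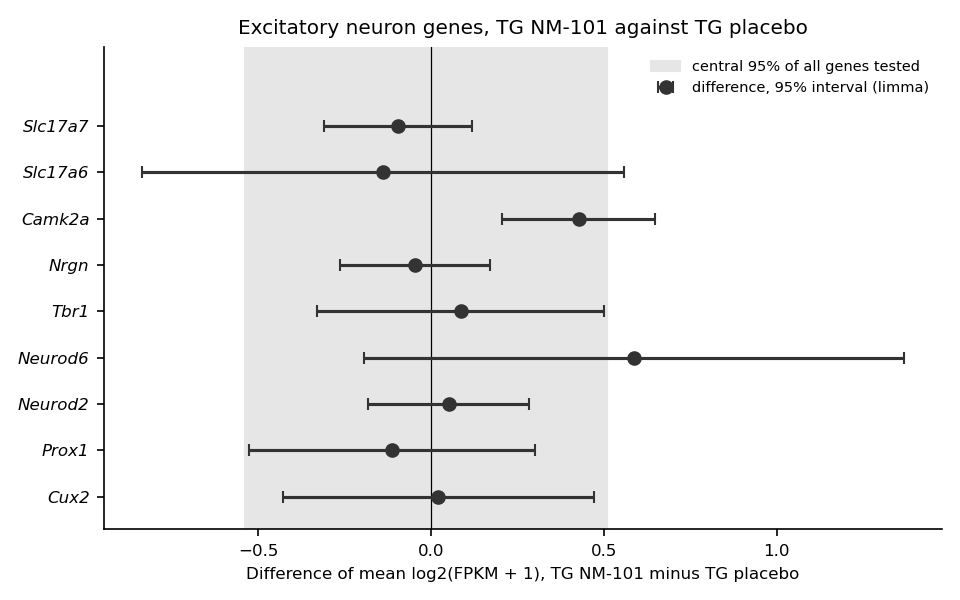
Difference of mean log2(FPKM + 1), TG NM-101 minus TG placebo, for the 9 excitatory neuron genes, with 95% limma intervals and the central 95% of all genes tested in grey (-0.54 to 0.51). The Camk2a interval (0.21 to 0.65) is the only one that does not cross 0, and that of Neurod6 is the widest (-0.19 to 1.37).

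Slc17a7, the cortical vesicle transporter, stood at 8.72, 8.97 and 8.83 log2(FPKM + 1) in the NM-101 libraries, against 9.00, 8.91 and 8.89 in the TG placebo libraries. The groups overlapped. The difference was -0.09 (95% interval -0.31 to 0.12, limma adjusted p = 0.656).

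Slc17a6, the subcortical transporter, was low and uneven. It stood at 2.15, 2.24 and 2.93 under NM-101 and at 3.12, 2.06 and 2.55 under TG placebo. NM-101 replicate 3 and TG placebo replicate 1 were the high libraries of their groups. The difference was -0.14 with a wide interval (-0.83 to 0.56, limma adjusted p = 0.854), and it was 0.13 without TG placebo replicate 1 and 0.0057 without NM-101 replicate 1. The pseudocount understates differences of a gene at this level.

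The 2 transporters can be set against each other inside a library, which removes library scaling. Slc17a6 minus Slc17a7 was -6.57, -6.73 and -5.90 in NM-101 libraries and -5.89, -6.85 and -6.34 in TG placebo libraries, as differences of levels on the log2(FPKM + 1) scale. In the WT libraries, rebuilt from counts and lengths, it was -4.89, -4.79 and -5.99. The means were -6.40 ± 0.44 in NM-101 and -6.36 ± 0.48 in TG placebo libraries (SD, n = 3 each), and they differed by -0.04 (exact two-sided permutation p = 0.9, where 3 against 3 cannot go below 0.1). The TG gaps overlapped those of WT only through WT replicate 3. The sum of 13 genes of subcortical glutamate neurons was 50.5 to 68.6 FPKM under NM-101, 70.1 to 109 under TG placebo and, over the 12 with a length, 57.3 to 97.6 in WT. Its highest TG value was in TG placebo replicate 1 and its highest WT value in WT replicate 1, the libraries with the most choroid plexus RNA, and the part of that RNA in the Slc17a6 level was not tested.

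**Figure D3:**
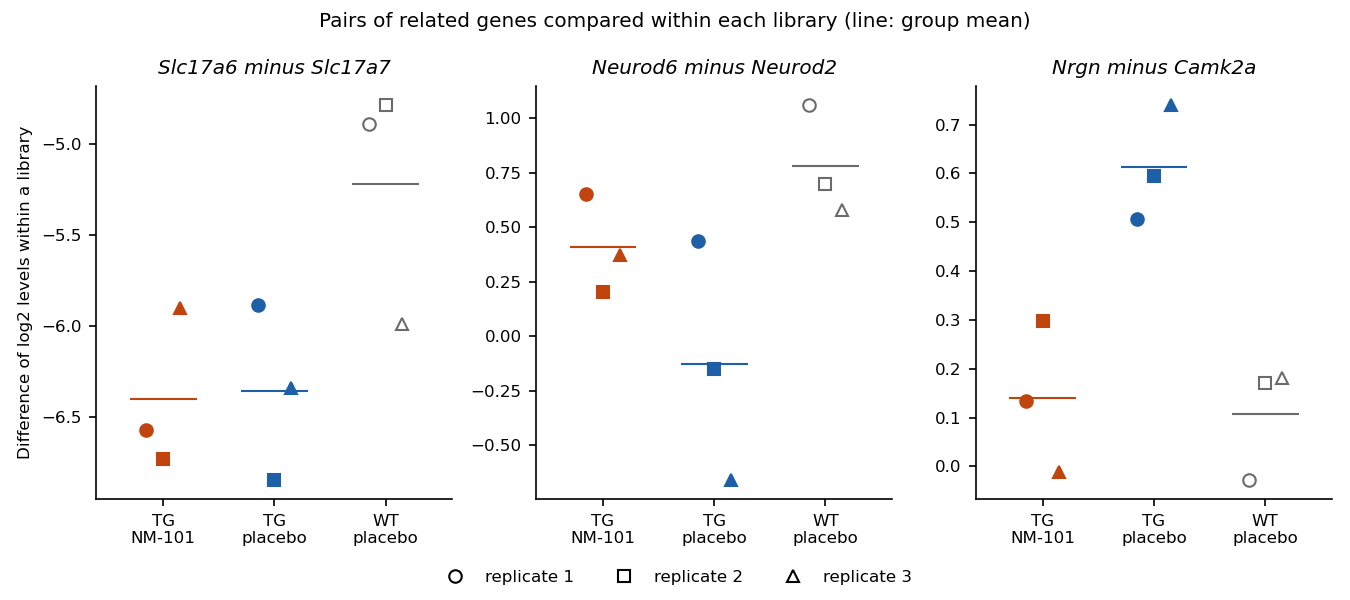
Difference of log2 levels between 2 related genes inside each library, for Slc17a6 minus Slc17a7, Neurod6 minus Neurod2 and Nrgn minus Camk2a; symbols mark replicates, lines mark group means and WT values are rebuilt from counts. For Nrgn minus Camk2a the TG placebo libraries (0.51 to 0.74) lie above the NM-101 libraries (-0.01 to 0.30) and the rebuilt WT libraries (-0.03 to 0.18). The gap of WT replicate 3 is lowered by the lengths used for the minor Camk2a transcripts (1734 and 979 bases).

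Camk2a, the kinase subunit at chr18:60925307-60988152, was the member that came nearest to the threshold. Summed over its transcripts it stood at 10.22, 10.22 and 10.27 in the NM-101 libraries, against 9.97, 9.78 and 9.68 in the TG placebo libraries. Every NM-101 library was higher than every TG placebo library. The difference was 0.43 on the log2(FPKM + 1) scale (95% interval 0.21 to 0.65), with a limma adjusted p of 0.113. Without TG placebo replicate 1 it was 0.51 and passed (limma adjusted p = 0.00836). That fit called 2262 of 12729 genes and left only the TG placebo libraries high in nuclear-retained RNAs. The part of those RNAs in the Camk2a difference was not tested.

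Camk2a was also the only member with several transcripts, and their shares varied among libraries. The transcript NM_177407 carried most of the gene. It had 10.21, 10.21 and 10.26 log2(FPKM + 1) under NM-101, against 9.95, 9.75 and 9.56 under TG placebo. In WT it had 42835, 52839 and 39042 counts. Its share was lowest in TG placebo replicate 3 (91.7% of FPKM) among TG libraries and in WT replicate 3 (82.6% of counts) among WT libraries. NM_001286809 had 1.14, 1.5 and 0 on the log2(FPKM + 1) scale under NM-101 and 0.67, 2.73 and 5.79 under TG placebo. In WT it had 0, 0 and 7018 counts. Its highest TG value was in TG placebo replicate 3, and among WT libraries it was detected in replicate 3 alone. Its share of Camk2a counts in WT replicate 3 was 14.9% (95% Wilson interval 14.5% to 15.2%), against at most 0.00885% and 0.00717% allowed by the intervals in WT replicates 1 and 2. Such intervals cover counting error only.

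The third transcript, NM_009792, was low in every library. It held 0.525%, 0.763% and 0.457% of the gene's FPKM under NM-101, against 1.08%, 1.11% and 1.62% under TG placebo. In WT it held 1.25%, 1.38% and 2.51% of the gene's counts. All NM-101 libraries were below all TG placebo libraries in this share, which was singled out after its values were seen and was not tested. With NM_177407 alone in place of the sum, the Camk2a difference was 0.47 (limma adjusted p = 0.150). How the authors assigned reads among the 3 transcripts is not given in the sources used here.

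**Figure D4:**
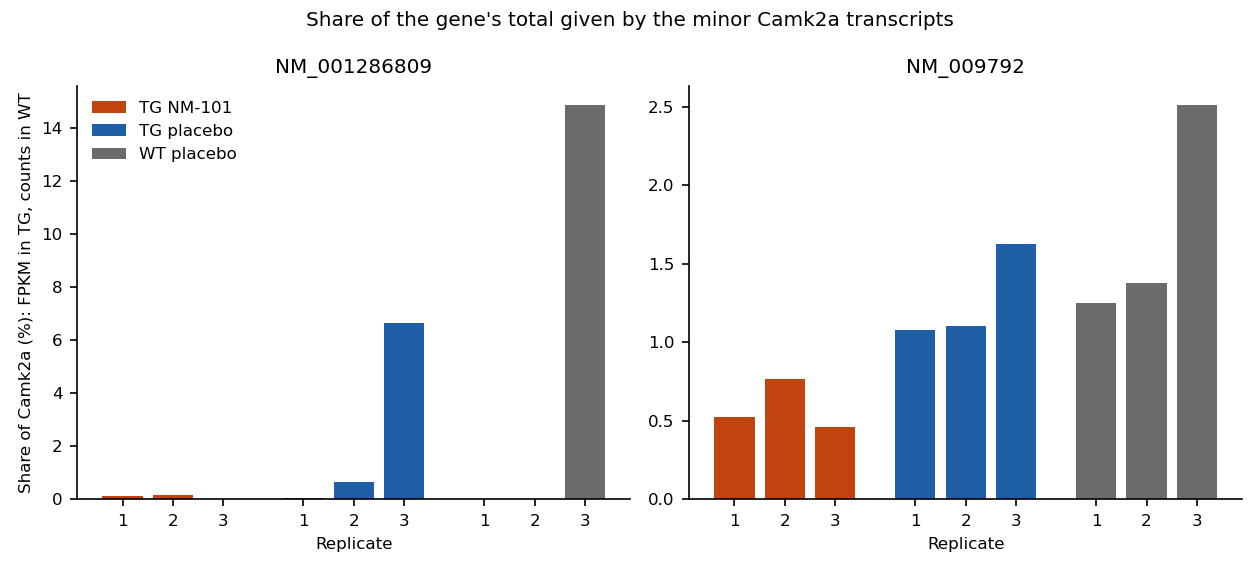
Share of Camk2a given by its 2 minor transcripts in each library, in percent of the gene's FPKM in TG libraries and of its counts in WT libraries (the vertical scales differ). NM_001286809 reaches 6.64% in TG placebo replicate 3 and 14.9% in WT replicate 3, and NM_009792 is lower in the NM-101 libraries (0.457% to 0.763%) than in the TG placebo libraries (1.08% to 1.62%).

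Nrgn, the member with the highest mean on the log2(FPKM + 1) scale, overlapped between the TG groups. It stood at 10.36, 10.52 and 10.26 under NM-101 and at 10.48, 10.37 and 10.42 under TG placebo. The difference was -0.05 (95% interval -0.26 to 0.17, limma adjusted p = 0.845). Inside each library Nrgn minus Camk2a was 0.13, 0.30 and -0.01 under NM-101, 0.51, 0.59 and 0.74 under TG placebo, and -0.03, 0.17 and 0.18 in WT. This pair was chosen after the values were seen, and no test was made of it. Its WT gaps depend on the lengths used for rebuilding. Lengths of 1734 and 979 bases for the minor Camk2a transcripts raise the Camk2a sum of WT replicate 3 and lower the gap there.

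Among the TG libraries Neurod6 varied more than Neurod2. It stood at 6.65, 6.27 and 6.24 in the NM-101 libraries, against 6.51, 5.66 and 5.24 in the TG placebo libraries. TG placebo replicate 1 lay among the NM-101 values and replicates 2 and 3 below all of them. The difference was 0.59 with an interval from -0.19 to 1.37 (limma adjusted p = 0.435). Without TG placebo replicate 1 it was 0.94 and passed (limma adjusted p = 0.00609), in the fit that called 2262 of 12729 genes. Without TG placebo replicate 3 it was 0.31. The low libraries were again those high in nuclear-retained RNAs, whose part in the Neurod6 level was not tested.

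Its relative Neurod2 stayed close. It stood at 6.00, 6.07 and 5.87 under NM-101 and at 6.07, 5.81 and 5.90 under TG placebo, a difference of 0.05 (interval -0.18 to 0.28, limma adjusted p = 0.838). Inside a library Neurod6 minus Neurod2 was 0.65, 0.20 and 0.37 under NM-101, 0.43, -0.15 and -0.66 under TG placebo, and 1.06, 0.70 and 0.58 in WT. TG placebo replicates 2 and 3 were the libraries in which Neurod6 was the lower gene of the pair, which was also chosen after the values were seen and was not tested.

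The layer and dentate factors were low and overlapped between the TG groups. Tbr1 stood at 3.41, 3.18 and 3.76 under NM-101 and at 3.06, 3.47 and 3.57 under TG placebo (difference 0.09, interval -0.33 to 0.50, limma adjusted p = 0.851). Cux2 stood at 2.23, 1.82 and 2.6 under NM-101 and at 2.08, 2.25 and 2.26 under TG placebo (difference 0.02, interval -0.43 to 0.47, limma adjusted p = 0.970). In both genes NM-101 replicate 3 was the highest and NM-101 replicate 2 the lowest of its group. Prox1 stood at 3.70, 3.03 and 3.61 under NM-101 and at 3.38, 3.63 and 3.67 under TG placebo (difference -0.11, interval -0.53 to 0.30, limma adjusted p = 0.800). NM-101 replicate 2 was the lowest of all 6 in Prox1.

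The WT libraries show the members as counts, with counting error that can be stated. Camk2a had 43378, 53576 and 47246 counts, or 4088, 3815 and 4013 CPM, which are counts scaled by the library total. Slc17a7 had 12783, 14629 and 15123 counts and Nrgn 13069, 18623 and 21594. Nrgn was highest in WT replicate 3 (1834 CPM), with an exact Poisson 95% interval of 1810 to 1859, against 1231 (1210 to 1253) in replicate 1 and 1326 (1307 to 1345) in replicate 2.

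The subcortical and upper-layer members varied most among WT libraries. Slc17a6 had 568, 696 and 290 counts, and replicate 3 at 24.6 CPM (interval 21.9 to 27.6) was lower than replicate 1 at 53.5 (49.2 to 58.1) and replicate 2 at 49.6 (46.0 to 53.4). Cux2 had 214, 464 and 150 counts, with 33.0 CPM (30.1 to 36.2) in replicate 2 and 12.7 (10.8 to 14.9) in replicate 3. Tbr1 had 476, 1000 and 624 counts and was likewise highest in replicate 2, at 71.2 CPM (66.9 to 75.8). Neurod6 had 2185, 2298 and 2521 counts and Neurod2 1513, 2055 and 2457. Prox1 was the most even of the low members, with 329, 392 and 373 counts and 31.0, 27.9 and 31.7 CPM, whose intervals overlap. For each of the other 8 members the intervals of at least 1 pair of WT libraries did not overlap.

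Setting TG placebo beside WT placebo asks what the genotype changes, but here it is a description of levels across groups normalized separately. TG NM-101 differs from WT placebo in both genotype and treatment, which cannot be told apart in that comparison. For TG NM-101 against WT the members' median difference was 0.18 (all genes 0.05), and for TG placebo against WT it was -0.04 (all genes 0.05). Both sets of differences use the same WT libraries. Under NM-101, 2 members lay above every WT library (Camk2a and Prox1) and 0 below, where 36.6% of the 12410 genes compared did not overlap (23.5% above and 13.1% below). Under TG placebo, 3 members lay above every WT library (Slc17a7, Nrgn and Prox1) and 1 below (Tbr1), against 36.7% of genes (20.8% above and 15.9% below).

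Prox1 and Slc17a6 lay farthest from WT, in opposite directions. The rebuilt Prox1 level was higher by 1.18 under NM-101 and by 1.29 under TG placebo, where the central 95% of all genes ran from -0.79 to 1.23 and from -0.84 to 1.13. The rebuilt WT value divides by a GENCODE transcript of 7913 bases, and whether the authors used that length is not given in the sources used here. For Prox1 and the other members, a difference between TG and WT and a difference in the length used cannot be told apart here. Relative to WT, Slc17a6 was at -0.99 under NM-101 and -0.85 under TG placebo, with groups that overlapped through WT replicate 3. Tbr1 was at -0.45 under NM-101 and -0.53 under TG placebo, and Neurod6 at -0.12 under NM-101 and -0.71 under TG placebo. The Camk2a values, 0.39 under NM-101 and -0.04 under TG placebo, rest in WT on lengths of 1734 and 979 bases for its minor transcripts, which raise the sum of WT replicate 3.

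Other genes of these neurons and of their nearest kin were read from 8 lists, none of which holds a member. Of 17 tested cortical layer genes 0 passed limma after adjustment and 3 were higher at an unadjusted p under 0.05, with a median difference of 0.18. Rorb, a factor of layer 4 in cortex, differed by 0.34 (limma adjusted p = 0.317), and by 0.61 with its highest transcript alone (limma adjusted p = 0.304). Of 12 hippocampal genes 0 passed, with 4 passing unadjusted (3 higher and 1 lower) and a median of 0.25. Over all genes tested, 10.7% were higher and 4.17% lower at an unadjusted limma p under 0.05. Spink8, a marker of CA1 pyramidal cells, stood at 5.88, 6.21 and 5.96 under NM-101, against 5.43, 5.06 and 4.54 under TG placebo (difference 1.01, limma adjusted p = 0.110). Fibcd1, also a CA1 gene, differed by 0.58 (limma adjusted p = 0.223). Without TG placebo replicate 1 Spink8 passed, as did Neurod1, Slc1a2, Glul, Dlgap1, Ppp1r9b, Tcf4 and Pou3f2 of the other lists. They passed in the fit that called 2262 of 12729 genes.

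The postsynaptic list held the most unadjusted calls among the neuronal lists. Of its 16 genes 0 passed limma after adjustment, while 9 were higher at an unadjusted p below 0.05 and 1 was lower, against 10.7% of all genes higher and 4.17% lower. Its median was 0.37, and 8 genes were higher and 1 lower without overlap of the groups, against 13.6% and 5.98% of all genes. Such calls were not particular to this list. At an unadjusted limma p under 0.05, 8 of 10 microglia genes were higher and 0 lower, and 6 of 10 astrocyte genes were higher and 0 lower. Dlgap1, a scaffold protein of the postsynaptic density, differed by 0.38 (0.14 with its highest transcript alone, limma adjusted p = 0.718) and Ppp1r9b, the spine protein spinophilin, by 0.47 (limma adjusted p = 0.110 for both). Of 16 genes of CaM kinase II and calmodulin, to which Camk2a and Nrgn are tied, 0 passed and 3 were higher unadjusted, with a median of 0.11. Camk2n1, an inhibitor of CaM kinase II, differed by 0.29 (limma adjusted p = 0.261).

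Of 12 tested genes of the Tbr1 and NeuroD network 0 passed and 2 were higher unadjusted, with a median of 0.13. Tcf4, a partner of NeuroD factors, differed by 0.40 (limma adjusted p = 0.113) and Pou3f2, a neuronal POU factor, by 0.52 (limma adjusted p = 0.145). Of 11 glutamate supply genes 0 passed and 4 were higher unadjusted, with a median of 0.09. Their leading genes, Slc1a2 (0.68, limma adjusted p = 0.0561) and Glul (0.51, limma adjusted p = 0.149), take up and convert glutamate in astrocytes rather than in neurons. With its highest transcript alone Slc1a2 differed by 0.32 (limma adjusted p = 0.285), below Glul. Subcortical genes had mostly negative differences, with 7 of 8 tested lower, a median of -0.34, 0 passing limma and 1 lower unadjusted. Calb2, calretinin, led at -0.71 (limma adjusted p = 0.257), then Ramp3 at -0.57 (limma adjusted p = 0.550). The Ramp3 difference shrank to -0.096 when TG placebo replicate 1 was left out and was -0.99 when replicate 2 was. The Calb2 difference instead grew to -0.85 without TG placebo replicate 1. Calb2 was lowest there among the TG placebo libraries (5.34, against 5.64 and 5.88). The median level of the 8 tested subcortical genes was 2.12 to 2.36 log2(FPKM + 1) in NM-101 libraries. It was 3.43, 2.02 and 2.26 in TG placebo replicates 1, 2 and 3, so 1 library stood apart. Of 8 cerebellar genes only 3 were tested, with a median of -0.14, 0 passing limma and 0 at an unadjusted p under 0.05. Neurod1, which that list shares with the NeuroD network, was at -0.17 (limma adjusted p = 0.655) and Cbln1 at -0.14 (limma adjusted p = 0.758). Leaving out 1 TG placebo library moved Neurod1 between -0.37 (without replicate 1) and -0.053 (without replicate 3), and Cbln1 between -0.33 and 0.0047 for the same libraries.

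**Figure D5:**
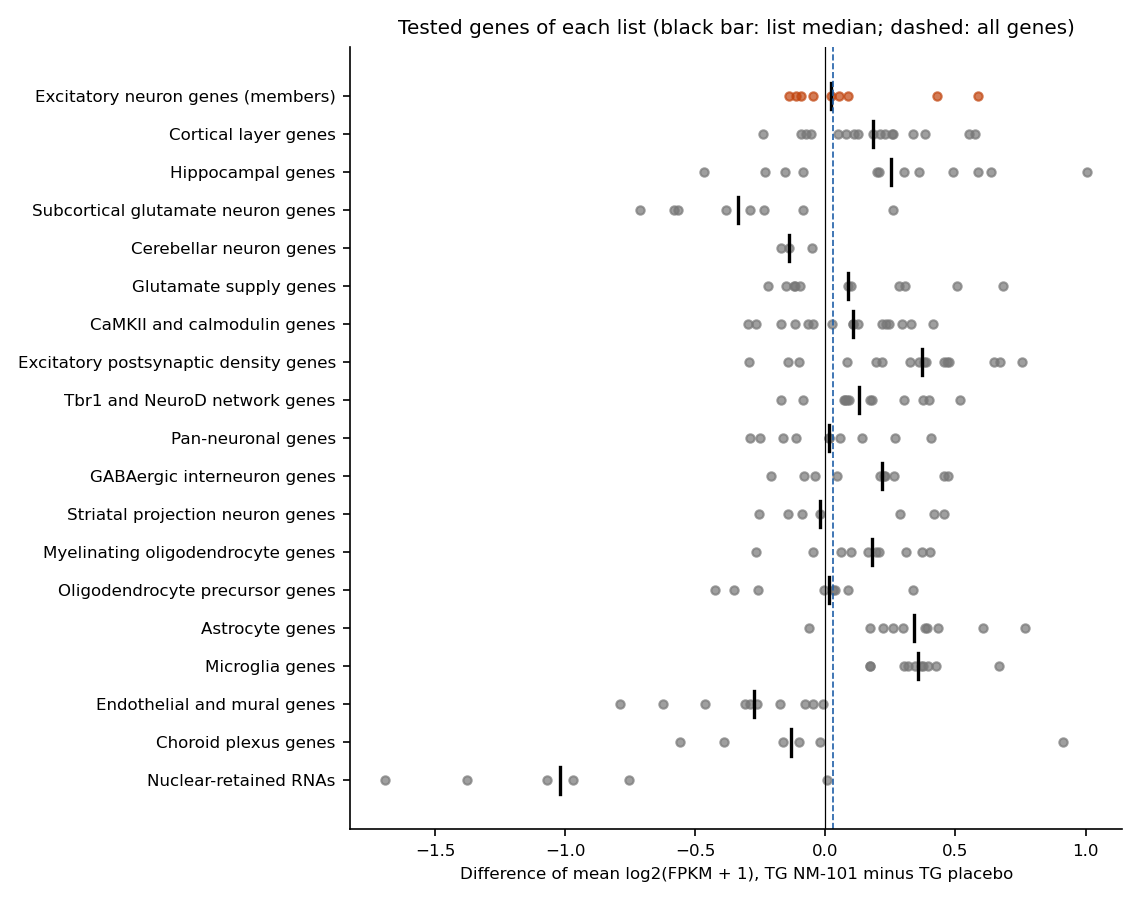
Difference of mean log2(FPKM + 1), TG NM-101 minus TG placebo, of every tested gene in each list; black bars are list medians and the dashed line is the median of all genes (0.03). The excitatory neuron genes (top row, median 0.02) lie around 0, with Camk2a (0.43) and Neurod6 (0.59) to the right, and the postsynaptic list has a median of 0.37.

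Markers of other cell types are given beside these values. Median differences of NM-101 minus TG placebo were 0.01 for 10 pan-neuronal genes, 0.22 for 10 genes of GABAergic interneurons, -0.02 for 7 striatal genes, 0.18 for 10 myelin genes and 0.01 for 8 oligodendrocyte precursor genes. They were 0.34 for 10 astrocyte genes, 0.36 for 10 microglia genes, -0.28 for 10 endothelial and mural genes, -0.13 for 6 choroid plexus genes and -1.02 for 6 nuclear-retained RNAs. In these 10 lists 1 gene passed limma, the astrocyte gene Sox9 (0.77, adjusted p = 0.0425), and it stayed past the threshold under 2 of 12 alternatives. The astrocyte genes summed to 1278 to 1320 FPKM under NM-101, against 919 to 1122 under TG placebo, and the microglia genes to 430 to 438 under NM-101, against 322 to 354 under TG placebo. None of the 20 was at 0 in any library. Their part in the members' values was not tested.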

How the data were processed

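Mouse brain RNA was sequenced in 9 libraries. The submitters' processing notes name Bowtie2 and mm10, and no source used here names a counting program or gene models. All values come from 1 table that the authors deposited. In that deposited table the WT columns hold raw counts per RefSeq transcript, and the 6 TG columns hold log2 values, read from their pattern as log2(FPKM + 1). A total of 32390 transcripts received a symbol from RefSeq's GRCm38.p6 table and 909 kept their identifiers.

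TG values were made linear, summed per gene and written as log2(value + 1), so the pseudocount is 1 and fold changes of low genes are understated. Genes with a mean of at least 1 over the 6 TG libraries were tested with limma 3.58.1 in R 4.3.3 (variance trend, robust, Benjamini-Hochberg over all 12699 genes, threshold 0.05). The procedure was tested on simulated data. Since separate animals are not stated, each p-value reflects spread among libraries and may be technical. WT counts were divided by total and by GENCODE M21 length. Ratios within libraries used an exact permutation test. The 18 lists each name at most 2 genes, those with the smallest p-values, and some such results are not reported here; 2 of their genes are not in the table. Members, lists, tests and within-library pairs were chosen with earlier results of these data known. Alternatives covered pseudocount, filter, scaling, zeros, transcript choice, the replicate block and leaving out each library.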

Additional observations from a re-analysis of the deposited data

How the results depend on the processing

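No member passed limma under any alternative except without TG placebo replicate 1, where Camk2a and Neurod6 did (0 to 2 members when leaving out a library). The fit in which they passed called 2262 of all 12729 genes tested there. The count of all genes called moved from 17 to 4 without the filter, 4 with median-ratio scaling (1 higher and 3 lower, against 13 higher and 4 lower), 3 with the replicate block, 0 among genes above 0 in all 6 samples (1894 at an unadjusted p under 0.05 in limma), 7 with the highest transcript, and 2 to 2262 when leaving out a library; the cause was not tested. Members' median differences when leaving out a library ran from -0.068 to 0.096 for TG NM-101 minus TG placebo, from -0.084 to 0.12 for TG placebo minus WT and from 0.12 to 0.25 for TG NM-101 minus WT. With the highest transcript, which changes only Camk2a, TG placebo minus WT was 0.20. The gap of Slc17a6 to Slc17a7 differed by -0.29 to 0.19 when leaving out a library, with both signs. For differences near 0 the sign depended on the library left out: Slc17a6 ran from -0.40 to 0.13, Nrgn from -0.12 to 0.014, Tbr1 from -0.070 to 0.22, Neurod2 from -0.0083 to 0.13, Prox1 from -0.24 to 0.10, Cux2 from -0.17 to 0.22 and Cbln1 from -0.33 to 0.0047. Cux2 was at -0.0017 with median-ratio scaling. Same-numbered NM-101 and placebo libraries did not deviate together (correlations over genes 0.04, -0.03 and -0.02), so the replicate numbers were not taken as pairs; with the replicate block 0 members passed. The low members rest on fewer counts: Cux2 had 150 to 464 in WT, and its spread among WT libraries went beyond counting error.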

Other observations

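The division of Camk2a reads among transcripts was an unusual pattern in WT. Of 3299 transcripts with at least 1000 counts in a WT library, 4 had 0 counts in another, and NM_001286809 of Camk2a was 1 of them. All 4 belong to genes with several transcripts in the table.

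Genes with the profile most like each vesicle transporter were named by Pearson's r over the 6 TG libraries, as a description. For Slc17a7 they were Ccne1 (r = 0.987), Zswim1 (0.987) and Plrg1 (0.985), and 100 of 12698 genes had an r over 0.9. For Slc17a6 they were Arhgap22 (0.995), Pstpip2 (0.969) and Cks1b (0.968), and 40 genes had an r over 0.9. The 6 points share their groups and libraries, and nothing on shared function is drawn from them.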
